A study of Homo sapiens with 2 samples.

Results

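The genes described here are 9 genes of the inflammasome: the adaptor PYCARD, the inflammatory caspases CASP1 and CASP4, the CARD-only gene CARD16, the sensors NLRP1, AIM2 and CARD8, the pore-forming gene GSDMD and the cytokine gene IL18. They were chosen by gene name, after PYCARD had been seen to be listed at 0 FPKM in one of the libraries, so the difference between the libraries in these genes is given as a description. All 9 were among the 25240 genes of the deposited tables, with 29 RefSeq transcripts. The study holds 2 libraries of T47D, an established human breast cancer line of the luminal A type, grown in high-glucose DMEM with 10% serum. In the library called shNT the cells carried a non-targeting hairpin, and in the library called shRON they carried a hairpin against RON, the receptor tyrosine kinase encoded by MST1R. Both cultures had been selected with puromycin at 5 ug/mL and were then held in 1 ug/mL. Each group is 1 library, so no difference below has a replicate check, and each describes these 2 libraries only.

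An inflammasome is a protein platform that forms in the cytosol when a sensor detects infection or damage. The sensor recruits the adaptor ASC, the product of PYCARD, which polymerises and gathers caspase-1. Caspase-1 then matures IL-18 and IL-1 beta and cuts gasdermin D, whose released part makes pores in the plasma membrane, a form of cell death called pyroptosis. Caspase-4 binds bacterial lipopolysaccharide directly and cuts gasdermin D without ASC. Epithelial cells are known to keep IL18 transcripts without stimulation, whereas IL1B is mainly a myeloid gene, and CASP1, CASP4, GSDMD, IFI16 and the GBP genes are known to respond to interferon. PYCARD is also called TMS1, a name that refers to methylation of its promoter in breast cancer cells. Methylation was not measured here.

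MST1R itself stood at 12.1 FPKM in shNT and at 9.10 in shRON, 25.1% lower. FPKM is a fragment count scaled to transcript length and to library depth. The shNT library rested on about 11729000 fragments and shRON on about 11206000, estimated from the deposited coverage. The control table is named for wild-type cells but labelled as non-targeting hairpin, and the label was followed. All 10 luminal epithelial markers were measured, with a summed level of 8784 FPKM in shNT and 6521 in shRON. Their median log2 ratio of FPKM + 1 (shRON over shNT) was -0.39, 3 of the 10 were at least 1.5-fold lower, and PGR, the progesterone receptor gene, was more than 2-fold lower (76.7 and 35.1 FPKM). Of 13 immune cell markers, 7 were at 0 in both libraries, including PTPRC, CD3E, LYZ and TYROBP. The summed level of the 13 was 1.89 FPKM in shNT and 6.97 in shRON, most of it from the lysosomal gene CD68 (1.37 and 5.84 FPKM), with the monocyte gene CD14 at 0.115 and 0.879. The 7 fibroblast markers summed to 4.14 FPKM in shNT and 5.86 in shRON. The collagen gene COL3A1 (0.0103 and 1.53 FPKM) made most of this difference, and COL1A1 (3.95 and 4.27) most of both sums. PDGFRB and FAP were at 0 in both libraries. The 6 endothelial markers summed to 7.22 and 7.66 FPKM, nearly all from ENG (7.21 and 7.65), and 4 of them were at 0 in both. Neither the presence of such cells nor their part in the levels of inflammasome genes, which are high in myeloid cells, was tested.

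PYCARD was listed at 10.6 FPKM in shNT and at 0 in shRON. Both of its transcripts went the same way. The longer one, NM_013258.3 (927 bases), had 9.41 FPKM and a mean coverage of 34.1 reads per base in shNT, and the shorter one, NM_145182.1 (870 bases), had 1.2 FPKM and a coverage of 4.34. In shRON both had 0 FPKM and 0 coverage, and the status was OK for both in each library, so the 0 was not marked as a failed estimate. The shNT value came from an estimated 143 fragments, which at the depth of shRON would be 138. Because shRON is at 0 in a table without counts, no fold is given. In bulk RNA a loss in every cell and a loss of the cells that carried the transcript cannot be told apart.

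The pair of PYCARD transcripts differ in length by 57 bases, which is the length of 1 coding exon at chr16:31213468-31213524 (hg19, minus strand). It is shown because the 88.7% and 11.3% of PYCARD FPKM assigned to the longer and shorter transcript in shNT rest on reads that cover or skip it. The exon encodes the linker between the pyrin domain and the CARD of ASC.
PYCARD linker exon: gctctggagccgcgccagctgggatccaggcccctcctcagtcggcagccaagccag

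The gene occupies chr16:31212807-31214251 in the tables and is protein-coding on the minus strand. The GENCODE annotation of the same build places a long noncoding gene, PYCARD-AS1, on the opposite strand across it. Of 1727 distinct stretches of 50 bases in PYCARD transcripts, 54.6% also occur in PYCARD-AS1 on the other strand, and none in any further gene. No gene of the tables overlaps PYCARD, and the sources used here do not say whether the libraries kept strand. Sense and antisense reads at this place therefore cannot be told apart in shNT, while in shRON the PYCARD transcripts held neither.

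The measured neighbours of PYCARD were not lower to its extent. PRSS8, the gene of the membrane protease prostasin, was at 26.7 FPKM in shNT and at 28.7 in shRON, and MYST1, a histone acetyltransferase gene, at 13.5 and 10.7. On the other side ARMC5 (4.73 and 3.60 FPKM), C16orf58 (36.7 and 25.9) and C16orf67 (2.27 and 2.48) were the nearest measured genes, the closest of them 256 kb away. Among the 46 other measured genes within 1 Mb, log2 ratios lay between -0.91 and 0.57 with a median of -0.16, and 0 of them were 2-fold apart. Most leaned lower: 13 of the 46 were above 0, and 4 were at least 1.5-fold lower while 0 were higher by as much. A gene is called measured here at 1 FPKM or more in at least 1 library, and its log2 ratio is taken after 1 FPKM is added to the level in each library (shRON over shNT), which makes ratios of low genes smaller.

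**Figure D1:**
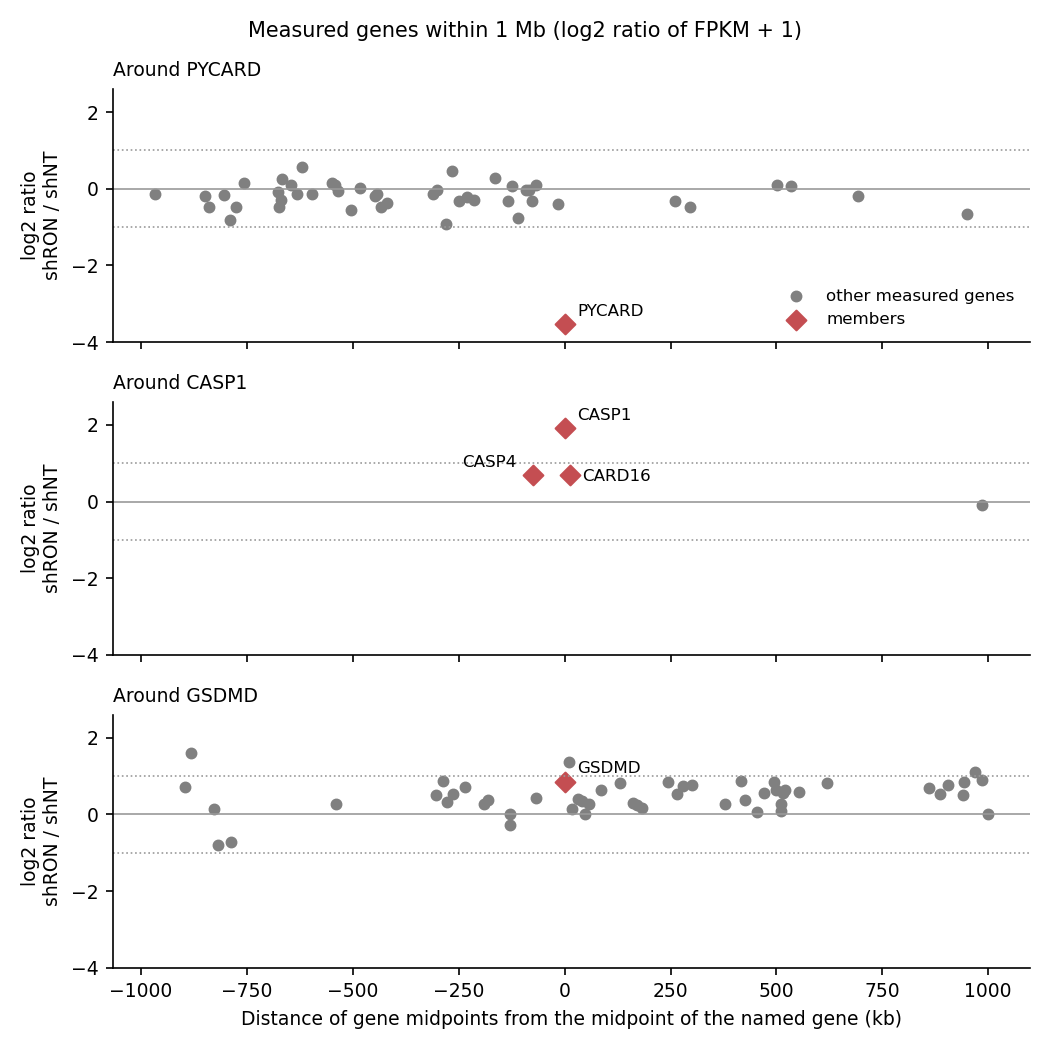
Log2 ratio of FPKM + 1 (shRON over shNT, vertical axis) of measured genes by the distance of their midpoint in kb from PYCARD, CASP1 and GSDMD, with members as red diamonds, other genes as grey points and dotted lines at 2-fold. PYCARD, whose place depends on the added 1 FPKM, lies apart from neighbours between -0.91 and 0.57, CASP4, CASP1 and CARD16 are all above 0, and 49 of 52 genes around GSDMD are above 0.

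Few genes went from a clear level to 0. The genes of this report were chosen after the 0 of PYCARD was seen, so that it stands out here was set in advance. Of 8235 genes at 5 FPKM or more in shNT, leaving out small RNA genes, PYCARD was the 1 that was listed at 0 in shRON with the status OK for every transcript. From 1 FPKM in shNT upward, 6 genes with PYCARD among them were at 0 in shRON by this rule. In the reverse case, 19 genes at 1 FPKM or more in shRON were at 0 in shNT. After PYCARD the next by level was ZMAT4 (2.91 FPKM, an estimated 100 fragments in shNT). The noncoding LOC389033 (2.75 FPKM) and LOC100506687 (1.57) and the histone gene HIST1H3J (1.32) followed. In the other direction 2 of 8435 genes were at 5 FPKM or more in shRON and at 0 in shNT. These were CLEC2A, a C-type lectin gene, at 10.1 FPKM (an estimated 131 fragments), and the noncoding LOC100506349 at 31.4. Of the 700 genes within 10% of the PYCARD level in shNT, the lowest in shRON after PYCARD was GRIK3 at 0.900 FPKM, and their median in shRON was 10.8.

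CASP1, which encodes the caspase that ASC recruits, was at 1.51 FPKM in shNT and at 8.52 in shRON. About 30 and 167 fragments stood behind these levels. They gave a ratio of 5.63 and a log2 ratio of 1.92, and counting error alone allowed ratios from 3.90 to 8.83 (approximate 95% interval). Of all measured genes, 0.625% had a higher log2 ratio. Most of the level belonged to NM_033292.2, the full-length alpha form, at 1.15 FPKM (coverage 4.21) in shNT and 7.54 (coverage 27.0) in shRON. The beta form NM_001223.3 was at 0.366 FPKM (coverage 1.34) and 0.980 (coverage 3.51), and the other 3 transcripts were at or below 0.000270 FPKM. The alpha form made up 75.8% of CASP1 FPKM in shNT, where only about 30 fragments were divided among the transcripts, and 88.5% in shRON.

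CASP4, the gene of the lipopolysaccharide-binding caspase in the same cluster as CASP1, was at 6.88 FPKM in shNT and at 11.7 in shRON. The ratio of FPKM was 1.70 (counting interval 1.37 to 2.11, from 137 and 224 estimated fragments) and the log2 ratio 0.69. Nearly all of it was NM_001225.3, at 6.62 and 11.7 FPKM with coverage of 24.7 and 42.0. NM_033306.2 was at 0.255 FPKM (coverage 0.95) in shNT and 4.10e-05 in shRON. CASP4 transcripts were 4.54 times as abundant as those of CASP1 in shNT and 1.37 times in shRON, per length. CASP5, the third inflammatory caspase gene of this cluster, was listed at 0 in both libraries.

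CARD16 encodes little more than a CARD and is known as an inhibitor that binds the CARD of caspase-1. It was at 1.55 FPKM in shNT and at 3.15 in shRON, from only 17 and 34 estimated fragments, so the ratio of 2.04 had a wide counting interval of 1.13 to 3.96 (log2 ratio 0.70). NM_001017534.1 was at 0.943 FPKM (coverage 3.55) in shNT and 1.40 (coverage 5.15) in shRON. NM_052889.2 was at 0.607 FPKM (coverage 2.28) and 1.76 (coverage 6.48), so the larger share lay with the first transcript in shNT and with the second in shRON, on these few fragments. Levels of CASP1 over CARD16 were 0.977 in shNT and 2.70 in shRON.

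The CARD of CARD16 is nearly a copy of that of CASP1, which bears on how reads were divided between them. Below is the 267-base coding exon of each, CARD16 at chr11:104915119-104915385 and CASP1 at chr11:104904935-104905201 (hg19, both minus strand), with the bases that differ in capitals.
CARD16: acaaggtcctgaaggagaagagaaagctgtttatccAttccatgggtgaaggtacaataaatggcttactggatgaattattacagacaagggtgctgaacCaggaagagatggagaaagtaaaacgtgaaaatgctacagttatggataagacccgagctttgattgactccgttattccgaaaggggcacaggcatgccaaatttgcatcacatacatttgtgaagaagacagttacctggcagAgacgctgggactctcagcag
CASP1: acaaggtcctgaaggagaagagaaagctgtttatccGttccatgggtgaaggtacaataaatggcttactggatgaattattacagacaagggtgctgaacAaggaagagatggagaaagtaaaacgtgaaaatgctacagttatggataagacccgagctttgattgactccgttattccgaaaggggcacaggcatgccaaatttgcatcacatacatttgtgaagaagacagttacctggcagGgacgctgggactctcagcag

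These exons differ at 3 bases (98.9% identity), and the longest identical run is 144 bases. Of 1665 distinct stretches of 50 bases in CARD16 transcripts, 12.2% occur in CASP1, and these are 4.48% of the CASP1 stretches. The values of CARD16 in particular are therefore uncertain, while most CASP1 stretches of this length do not occur in CARD16. CASP4 shared 0.231% of its stretches with other genes.

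The cluster of CASP4, CASP5, CASP1 and CARD16 lies on chromosome 11 (CASP4 at chr11:104813594-104839325, CASP1 at chr11:104896235-104905857, CARD16 at chr11:104912053-104916051). Around it few genes were measured. The nearest outside the cluster was KIAA1826, 963 kb away, at 6.77 FPKM in shNT and 6.25 in shRON. KBTBD3 (1.68 and 1.92 FPKM) and AASDHPPT, a transferase gene (28.3 and 29.1), followed. On the other side DYNC2H1 (2.36 and 2.39 FPKM) and DCUN1D5 (3.44 and 3.70) lay over 1.4 Mb away, and MMP13, a collagenase gene, was at 0.275 FPKM in shNT and at 6.01 in shRON. Of these 6, MMP13 was the 1 at least 2-fold apart.

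**Figure D2:**
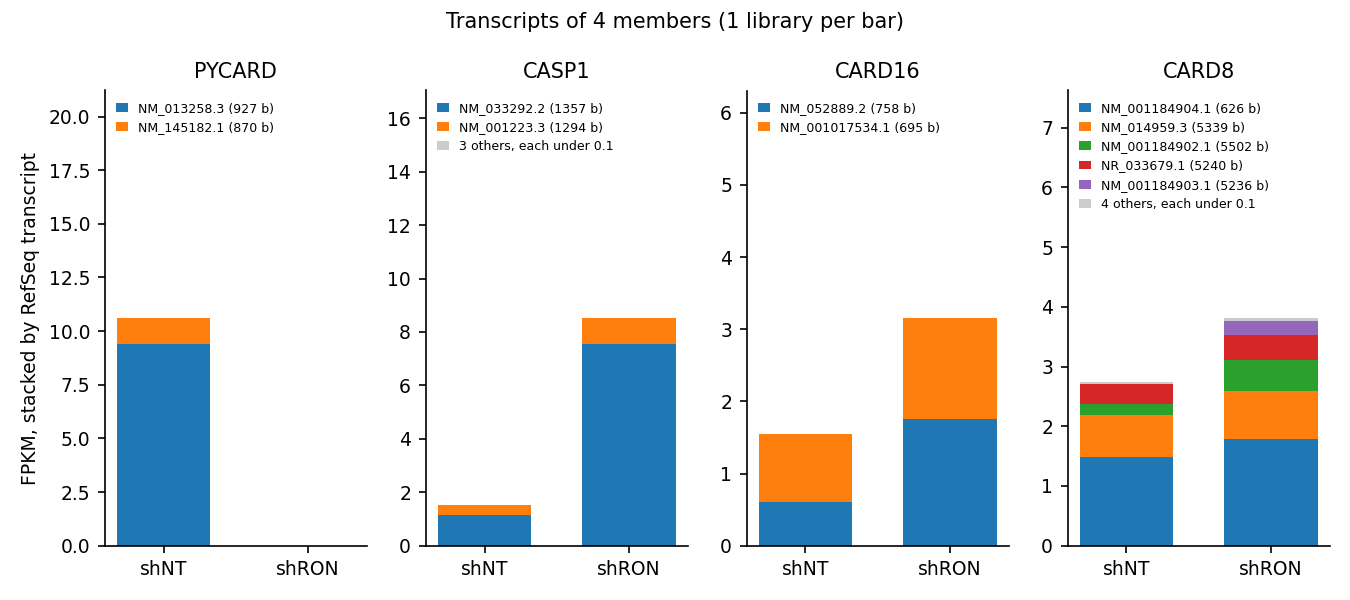
FPKM (vertical axis, own scale in each panel) of PYCARD, CASP1, CARD16 and CARD8 in the shNT and shRON libraries, each bar 1 library and each colour 1 RefSeq transcript with its length in bases. The PYCARD bar is 10.6 in shNT and 0 in shRON, CASP1 is 1.51 and 8.52, and the division among the transcripts of CARD16 and CARD8 differs between the libraries.

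The sensors were low. CARD8, which forms an inflammasome with caspase-1 after release of its C-terminal part, was at 2.74 FPKM in shNT and at 3.81 in shRON, a ratio of 1.39 (counting interval 1.17 to 1.91) and a log2 ratio of 0.36. Of its 9 transcripts the short NM_001184904.1 (626 bases) was the most abundant, at 1.48 FPKM (coverage 5.56) and 1.79 (coverage 6.19). NM_014959.3 was at 0.712 FPKM (coverage 2.67) and 0.80 (coverage 2.77), and NM_001184902.1 at 0.171 (coverage 0.642) and 0.518 (coverage 1.79). The noncoding NR_033679.1 was at 0.348 FPKM (coverage 1.30) and 0.418 (coverage 1.45), and NM_001184903.1 at 7.68e-16 and 0.244. The other 4 stayed at or under 0.0422 FPKM. With the most abundant transcript alone, the log2 ratio of CARD8 was 0.17. CARD8 (chr19:48711343-48759203) overlaps the gene LOC100505812 of the tables, and antisense genes of GENCODE, and 4.82% of its 50-base stretches occur in other genes, so its values are in part uncertain.

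NLRP1, a sensor of epithelial cells, stayed at 0.0828 FPKM in shNT and 0.0911 in shRON, about 7 fragments in each. Of its 5 transcripts, NM_033007.3 held 0.0826 FPKM (coverage 0.320) in shNT and NM_033004.3 held 0.0911 (coverage 0.325) in shRON, with the other 3 at or under 0.000156 in both. That is 99.8% of the gene in 1 transcript in shNT and nearly 100% in another in shRON, although the sum hardly moved and rested on a handful of fragments. AIM2, which binds cytosolic DNA, was at 0.0366 FPKM (coverage 0.142) and 0.0810 (coverage 0.302), an estimated 1 and 2 fragments. NLRP1 (chr17:5404719-5487832) and AIM2 (chr1:159032275-159046647) did not reach 1 FPKM and are not counted among the measured genes. At these counts no difference was detectable.

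GSDMD, the pore former, was by far the most abundant of the 9 genes, at 47.5 FPKM in shNT and 86.8 in shRON. Its ratio was 1.83, with a narrow counting interval of 1.74 to 2.01 from 1215 and 2187 estimated fragments, and its log2 ratio 0.86. NM_024736.6 held nearly all of it, at 47 FPKM (coverage 168) and 86.5 (coverage 306), while NM_001166237.1, which starts further upstream, was at 0.501 (coverage 1.80) and 0.257 (coverage 0.907). GSDMD lies on the plus strand at chr8:144635557-144645232, where GENCODE also has a noncoding gene on the other strand in which 1.54% of the 50-base stretches of GSDMD transcripts occur. Other genes there were higher too: of 52 measured genes within 1 Mb, 49 had log2 ratios above 0 and 21 were at least 1.5-fold higher, with a median of 0.52. Relative to that median GSDMD was at 0.34. Its nearest neighbours were C8orf73 (2.82 and 8.85 FPKM), NAPRT1, a gene of NAD synthesis (2.37 and 2.74), and ZC3H3 (11.9 and 16.4). The part of the region in the value of GSDMD was not tested.

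IL18, the caspase-1 substrate, was at 8.74 FPKM (coverage 31.5) in shNT and 6.5 (coverage 22.5) in shRON through its 1 transcript, NM_001562.2. The ratio was 0.743 (counting interval 0.569 to 0.957, from 146 and 104 fragments) and the log2 ratio -0.38, and 17.8% of measured genes had a lower log2 ratio. The gene (chr11:112013976-112034840) lies on the same arm as the caspase cluster, in a region whose 14 other measured genes had a median of 0.03. A further GENCODE coding gene overlaps its locus on the opposite strand, but 0.109% of the 50-base stretches of IL18 transcripts occur in any other gene.

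**Figure D3:**
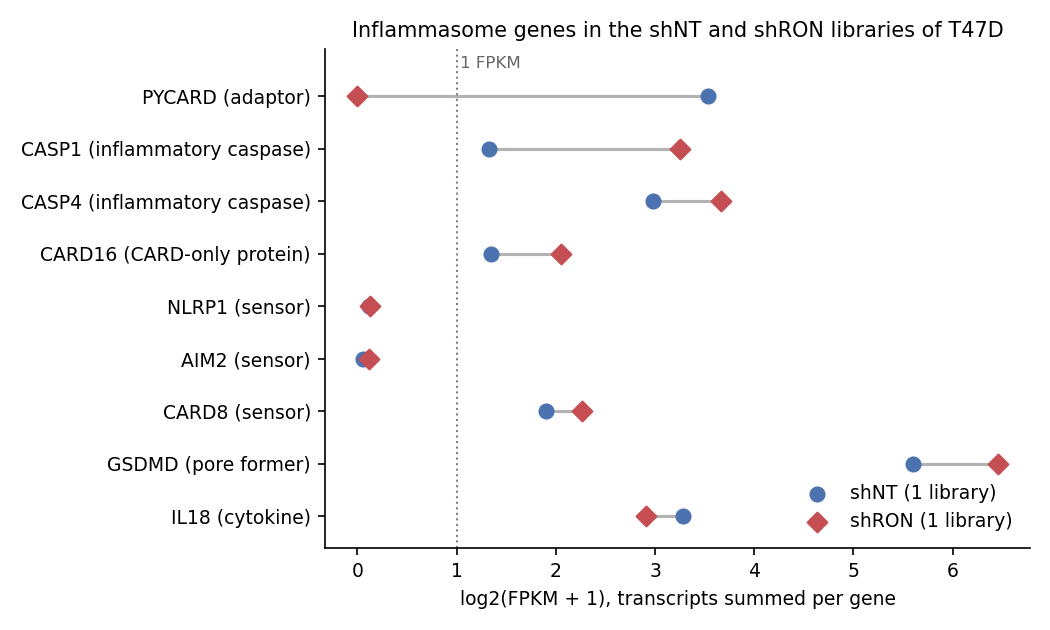
Level of each of the 9 genes as log2(FPKM + 1) (horizontal axis), with shNT as blue circles, shRON as red diamonds and 1 FPKM as a dotted line. PYCARD goes from 10.6 FPKM to 0, CASP1 from 1.51 to 8.52 and GSDMD from 47.5 to 86.8, while NLRP1 and AIM2 stay below 0.1 FPKM.

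By level, the order in shNT was GSDMD, PYCARD, IL18, CASP4, CARD8, CARD16, CASP1, NLRP1 and AIM2, with CARD16 and CASP1 close to each other at 1.55 and 1.51 FPKM. In shRON it was GSDMD, CASP4, CASP1, IL18, CARD8, CARD16, NLRP1, AIM2 and PYCARD. GSDMD made up 59.6% of the summed FPKM of the 9 genes in shNT and 72% in shRON. In shNT 7 of the 9 reached 1 FPKM, and in shRON 6 did.

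Of the 7 measured genes, 1 (CASP1) was at least 2-fold higher in shRON and 1 (PYCARD) at least 2-fold lower. Over all 12482 measured genes these shares were 3.32% higher and 2.17% lower. At 1.5-fold, 4 of the 7 were higher (CASP1, GSDMD, CARD16 and CASP4) and 1 lower, against 9.95% and 8.84% of all measured genes. These 4 are not separate observations. CASP1, CARD16 and CASP4 lie in 1 cluster, and 21 of 52 measured genes within 1 Mb of GSDMD were at least 1.5-fold higher too. The median log2 ratio of the 7 was 0.69, and that of all measured genes 0.04. PYCARD passed the 1 FPKM rule only through shNT, and its 0 in shRON had led to the choice of these genes. No log2 ratio of a measured gene was below that of PYCARD, a rank that the value added before the logarithm helps to set.

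**Figure D4:**
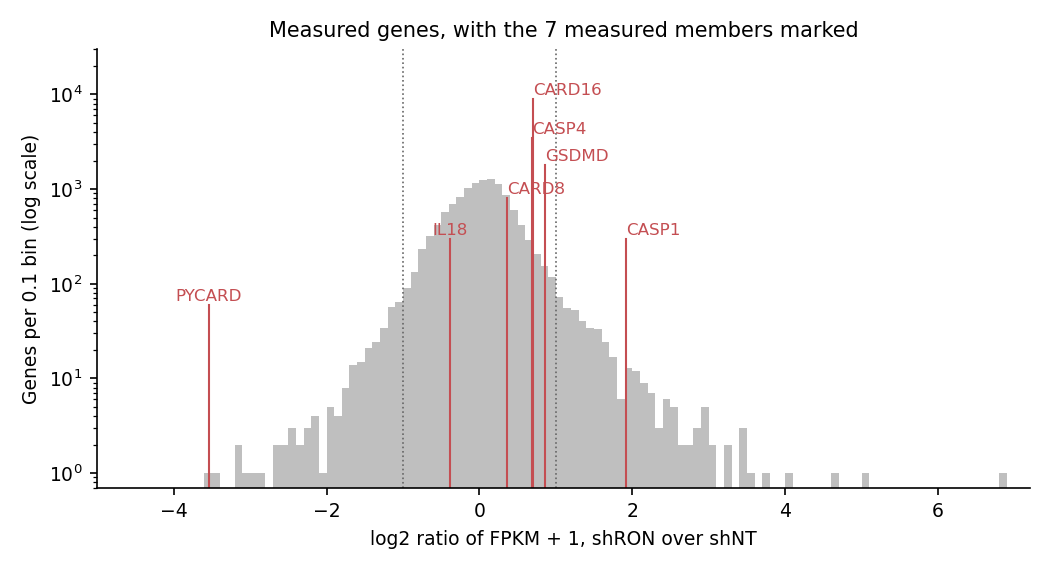
Number of measured genes per bin of 0.1 in the log2 ratio of FPKM + 1 (shRON over shNT), with counts on a log scale, dotted lines at 2-fold and the 7 measured members as red lines whose height carries no value. PYCARD is at the lower end, IL18 at -0.38 and CARD8 at 0.36 lie in the bulk of the 12482 genes, and CASP1 at 1.92 lies in the upper tail.

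Other genes of the pathway were taken from a list of 86 genes, of which 85 were in the tables and 39 were measured. Of the 39, 6 (15.4%) were at least 2-fold higher and 1 (2.56%) lower, beside 3.32% and 2.17% of all measured genes, so the share of lower genes was near that of all genes. Of the 6, CASP14 and GBP3 passed the 1 FPKM rule only through shRON, where they are high, which helps to set the higher share. The list was also chosen with earlier results of these data known. Their median log2 ratio was 0.19, beside 0.04 over all measured genes. The 46 that stayed under 1 FPKM included NLRP3, CASP5, CARD17, CARD18 and IL33, all at 0 in both libraries, and IL1B at 0 and 0.0436 FPKM.

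Among other sensors 7 of 24 were measured, 1 of them 2-fold higher and 0 lower. IFI16, a nuclear DNA sensor of the same family as AIM2, was at 1.41 FPKM in shNT and at 6.95 in shRON, a ratio of 4.94 (counting interval 3.82 to 6.96). NLRP2, the most abundant sensor, was at 21.3 and 23.0 FPKM, and its counting interval of 0.995 to 1.17 included no difference. NLRC5, the activator of MHC class I genes, was at 3.18 and 5.72 FPKM.

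Among other caspases 7 of 10 were measured, 1 of them 2-fold higher and 0 lower. CASP14, a caspase of keratinocytes, was at 0.220 FPKM in shNT and at 5.09 in shRON. It was measured only through shRON, from an estimated 3 and 53 fragments, and the ratio of 23.1 had a counting interval of 5.94 to 91.7. CASP8, the initiator that ASC can also bind, was at 6.36 and 8.69 FPKM.

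NINJ1, whose protein ruptures the plasma membrane after gasdermin pores form, was at 63.4 FPKM in shNT and at 23.2 in shRON. Its ratio was 0.367 (counting interval 0.335 to 0.419) and its log2 ratio -1.41, the opposite side from GSDMD. Genes within 1 Mb of NINJ1 had a median of -0.69, and relative to it NINJ1 was short of 2-fold. Of the other gasdermin genes, GSDMB was at 2.66 and 2.09 FPKM and DFNA5 at 1.09 and 1.38.

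Among regulators of sensor activation 12 of 14 were measured, 3 of them 2-fold higher and 0 lower. All 3 encode guanylate-binding proteins, which coat bacteria in the cytosol and help caspase-4 to act: GBP1 was at 1.75 FPKM in shNT and at 12.4 in shRON, GBP4 at 1.61 and 6.76, and GBP3 at 0.217 and 1.51, measured only through shRON. GBP2 was at 5.28 and 8.22 FPKM. DPP9, whose protein restrains NLRP1 and CARD8, was at 6.95 and 7.62 FPKM, and its relative DPP8 at 6.82 and 4.75. NEK7, a partner of NLRP3, was at 28.9 and 18.6 FPKM, and thioredoxin TXN, the most abundant gene of this group, at 580 and 480.

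MYD88, the adaptor that IL-1 and IL-18 receptors share, was at 28.5 FPKM in shNT and at 80.3 in shRON, a ratio of 2.82 (counting interval 2.64 to 3.02), and was the 1 of 5 measured signalling genes past 2-fold. Of the 8 receptor genes 3 were measured, 0 of them past 2-fold in either direction. SIGIRR, a receptor that dampens IL-1 signals, was at 12.2 and 9.79 FPKM, and the IL-18 receptor genes IL18R1 and IL18RAP were at 0 in shNT and at 0.0187 and 0 in shRON. IL18BP, which encodes the secreted inhibitor of IL-18, was at 2.28 and 2.91 FPKM. SERPINB1, an inhibitor of inflammatory caspases, was at 3.92 and 3.60, and was the 1 measured gene of 7 inhibitors, with CARD17, CARD18 and PYDC2 at 0 in both libraries.

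**Figure D5:**
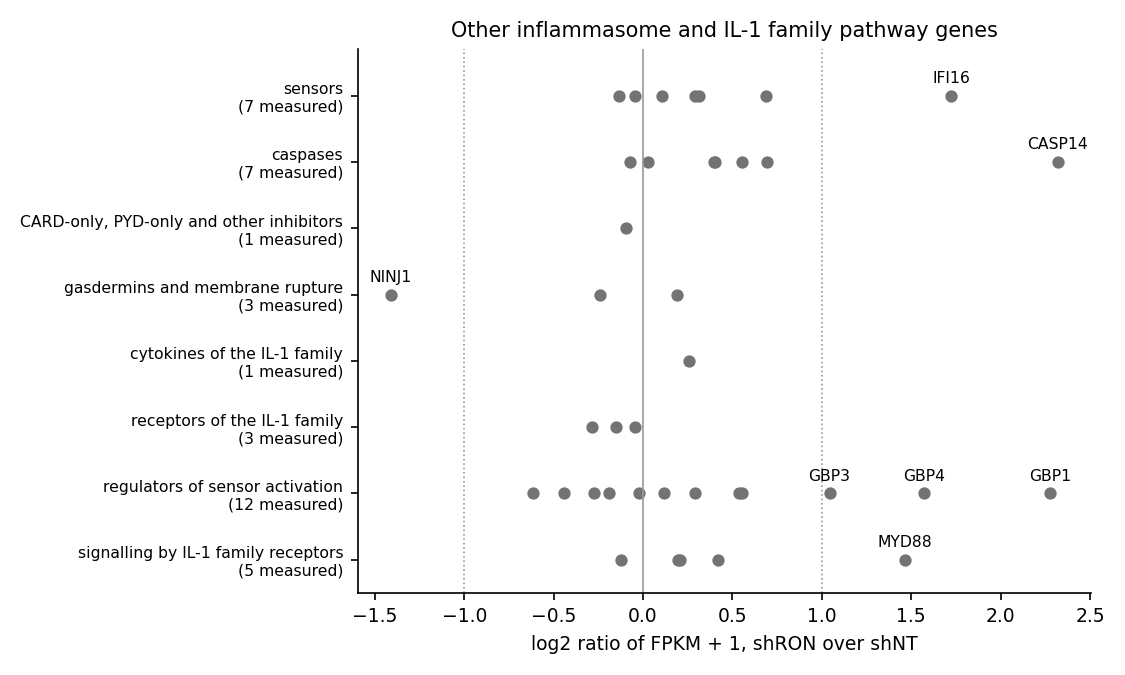
Log2 ratio of FPKM + 1 (shRON over shNT, horizontal axis) of the 39 measured genes of the wider pathway, 1 point per gene, in rows by role, with dotted lines at 2-fold. IFI16, CASP14, GBP1, GBP3, GBP4 and MYD88 lie to the right of 2-fold and NINJ1 at -1.41 to the left.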

How the data were processed

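RNA of 2 T47D libraries, 1 per group by treatment label, was sequenced from TruSeq libraries, per the labels' protocols. The deposited tables list 37839 RefSeq transcripts in the Cufflinks layout, with build hg19 per the submitters' processing notes. Aligner, annotation release and tool versions: not given in the sources used here. FPKM was deposited by the authors with no stated scaling between libraries. Coverage, also deposited by the authors, was taken as mean depth over a transcript, as its header says. In shNT 6 transcripts and in shRON 0 carried the status FAIL, and 94 in each LOWDATA.

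FPKM was summed per gene, small RNA genes were left out, and the 12482 genes that reached 1 FPKM in either library were kept. Ratios used a pseudocount of 1 FPKM, with calls at 2-fold and 1.5-fold and no test, since each group has 1 library. Fragments were estimated as coverage times length over 247 bases, the median product of single-transcript genes of 1000 bases or more whose product lay between 150 and 325 bases. The depth of shNT over shRON was set at 1.04. This is the ratio of the highest coverage per FPKM in each library among transcripts above 1 FPKM, not of total fragments. Intervals are 95% Clopper-Pearson on these estimates and cover counting error only; resting on fragments, they need not centre on the FPKM ratio. Sequences and overlaps came from GRCh37 and GENCODE v44lift37. Named genes were all 9 members, wider-list genes past 2-fold or most abundant in their role, the 3 nearest measured genes on each side, and genes at 0 in shRON with the highest shNT level; further genes were named after their values were seen, and some genes that the rule names are not reported here. Members, lists and size rules were chosen with earlier results of these data known. The size rule and interval were tried on simulated counts of equal depth, for genes at 5 FPKM or more in shNT. That trial covers neither genes below this level, such as CASP1 and CARD16, nor the estimate of fragments from coverage. Python 3.11.15, pandas 2.3.3 and scipy 1.17.1 were used. Alternatives are given in the closing section.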

Additional observations from a re-analysis of the deposited data

How the results depend on the processing

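CASP1 stayed past 2-fold, as the 1 higher member, under the 6 alternatives that can move a member's ratio. They were a pseudocount of 0.1 or 5 FPKM, the most abundant transcript, median-ratio scaling, coverage in place of FPKM, and subtraction of the regional median. PYCARD stayed the 1 lower member, past 2-fold, under the same 6. This was largely set in advance, since its 0 in shRON led to the choice of these genes. Scaling cannot move a 0, and the most abundant transcript and coverage of PYCARD are at 0 in shRON as well. The other 3 (no filter, a filter of 5 FPKM, transcripts with status OK) leave these ratios as they are by construction. The log2 ratio of PYCARD ranged most widely, from -6.74 with a pseudocount of 0.1 FPKM to -1.64 with 5 FPKM. That of CASP1 ranged from 1.05 to 2.42, that of GSDMD from 0.34 to 0.91 and that of IL18 from -0.42 to -0.26. With the regional median subtracted CARD16 was at 0.02 and CASP4 at -0.63, the opposite sign, because the measured genes within 1 Mb of CASP4 are CASP1 and CARD16. In the wider list, 2 genes in place of 6 were at least 2-fold higher with a pseudocount of 5 FPKM (GBP1 and MYD88), and 0 in place of 1 lower with the regional median subtracted. With a pseudocount of 5 FPKM 1.16% of all measured genes were higher and 0.673% lower by 2-fold, and with 0.1 FPKM 5.58% and 3.93%. No alternative left out a replicate, as each group has 1 library. Depth limits AIM2, NLRP1 and CARD16 most, with at most 34 estimated fragments in either library.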

Other observations

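Other cell death and CARD scaffold genes were looked at in a list of 16, made of necroptosis genes, CARD scaffolds and death-receptor adaptors and chosen after the values of PYCARD were seen. Of these, 14 were measured, and 1 was at least 2-fold higher and 0 lower (7.14% and 0%), beside 3.32% and 2.17% of all measured genes. ZBP1, a sensor of Z-form nucleic acids that can start necroptosis and is known to respond to interferon, had 0.179 FPKM in shNT against 2.02 in shRON, and was measured only through shRON. MLKL, which breaks the membrane in necroptosis, was at 3.77 and 5.57 FPKM, RIPK1 at 9.84 and 11.3, and RIPK3 stayed at or under 0.158. The death-receptor adaptor genes FADD and TRADD were at 24.1 and 22.8 FPKM and at 19.2 and 11.5. The 8 measured genes with CARD scaffolds had a median log2 ratio of 0.04, and 0 of them were past 1.5-fold.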
